A study of Mus musculus with 82 samples.

Results

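Txnip and its relatives Arrdc1, Arrdc2, Arrdc3 and Arrdc4 are the 5 alpha-arrestin genes described here, followed across 12 groups of mouse cells in which AMP-activated protein kinase (AMPK) was switched on, removed or both. The members are all probe sets that the array annotation gives to exactly 1 of these gene symbols. That makes 9 probe sets among 45037, and 5 genes among the 18032 tested. Txnip has 1415996_at and 1415997_at, Arrdc1 has 1424578_at, 1444508_s_at and 1458613_at, Arrdc2 has 1428352_at, Arrdc3 has 1454617_at, and Arrdc4 has 1424759_at and 1426818_at. Txnip was selected on measured values in mouse embryonic fibroblasts (MEFs), namely its log2 fold changes with 991 and with AICAR in wild-type (WT) MEFs and the difference between genotypes with 991. Those values are given below as a description, without a test. The other genes were taken for belonging to the same family.

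Alpha-arrestins are adaptor proteins with an arrestin fold and short proline- and tyrosine-containing motifs that recruit ubiquitin ligases of the Nedd4 family to membrane proteins, which are then internalised or sorted. The protein made from Txnip, thioredoxin-interacting protein, binds reduced thioredoxin and promotes the endocytosis of the glucose transporters Glut1 and Glut4, which restrains glucose uptake. Its gene is among the best known glucose-responsive genes, driven by MondoA (Mlxip) or, in liver, ChREBP (Mlxipl), each paired with Mlx, and AMPK is known to phosphorylate the Txnip protein and so promote its degradation. Arrdc4 is the closest relative of Txnip and is also induced by glucose through MondoA. Arrdc3 is known for its part in the trafficking of beta-adrenergic receptors and integrin beta 4, and Arrdc1 for the budding of vesicles from the plasma membrane together with Tsg101.

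RNA was measured on Affymetrix mouse arrays after 4 h of treatment. The dKO cells lacked both catalytic subunits of AMPK (genotype AMPK alpha1-/- alpha2-/-), and WT cells carried both, all of the C57BL/6 background. Cells of each genotype received 991, a direct allosteric activator of AMPK, or AICAR, a nucleoside that cells turn into the AMP mimetic ZMP, or the DMSO vehicle that all groups share. MEFs were kept in 10% fetal calf serum and received 991 at 10 µM or AICAR at 2 mM. Primary hepatocytes were isolated by collagenase perfusion, plated for 4 h with 10 nM insulin, 200 nM T3 and 100 nM dexamethasone, and kept overnight in medium whose listed hormone was 100 nM dexamethasone. They received 991 at 3 µM or AICAR at 300 µM, so doses differed between compounds and between cell types. The 23 MEF arrays fell into 6 groups, with 3 arrays for WT cells with 991 and 4 for each other group. The labels call all of these technical replicates, which means that their p-values reflect technical spread alone. A difference between genotypes or between treatments in MEFs thus cannot be told apart from a difference between the cultures used. Hepatocytes gave 59 arrays, 10 per group and 9 for dKO vehicle, made from 2 preparations of each genotype. Preparation means were tested (n = 2 per group).

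Levels are log2 intensities from the authors' RMA processing, in which a difference of 1 is a doubling. Each gene takes the values of its brightest probe set in a cell type, which is 1424759_at for Arrdc4 in MEFs and 1426818_at in hepatocytes. Values after ± are the SD for levels and the standard error for differences. This error comes from limma, which pools the spread over all groups of a fit, and is not the spread of the groups compared. A gene is called when its limma p, adjusted by Benjamini-Hochberg over all 18032 genes, is under 0.05. The median intensity of an array ran from 6.158 to 6.246 over the MEF arrays and from 5.877 to 6.078 over those of hepatocytes. The mean of 6 hepatocyte markers ran from 13.5 to 13.78 over the hepatocyte arrays and from 5.5 to 5.86 over the MEF arrays. All 5 Kupffer cell markers lay above the median gene in hepatocytes. Prkaa1 and Prkaa2, which encode the deleted subunits, did not read the knockout alike in both cell types. With vehicle, Prkaa1 differed between dKO and WT by -0.09 ± 0.10 in MEFs (limma adjusted p = 0.513) and by -1.11 ± 0.09 in hepatocytes (limma adjusted p = 0.197). That hepatocyte comparison called none of the 18032 genes, so its adjusted p does not show that Prkaa1 was unchanged. For Prkaa2 the difference between dKO and WT with vehicle was -0.32 ± 0.08 (limma adjusted p = 0.00116) in MEFs and -0.10 ± 0.08 (limma adjusted p = 0.992) in hepatocytes. The sources used here do not give whether these probe sets lie in the deleted part.

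The promoters of the 4 members that changed most in MEFs are shown because Txnip and Arrdc4 were higher, and Arrdc2 and Arrdc3 lower, with AICAR. Each window runs from 250 bases before to 50 bases after the annotated start, from RefSeq on GRCm38.p6, on the gene's own strand. The windows are chr3:96557707-96558006 on the plus strand for Txnip, chr7:68749189-68749488 on the minus strand for Arrdc4, chr8:70839671-70839970 on the minus strand for Arrdc2 and chr13:80883134-80883433 on the plus strand for Arrdc3. Capitals mark matches on either strand to the E-box CACGTG, the E-box-like site CACGAG, the paired form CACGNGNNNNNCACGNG, which has the layout of a carbohydrate response element, and the CCAAT box known to be bound by NF-Y.
Txnip: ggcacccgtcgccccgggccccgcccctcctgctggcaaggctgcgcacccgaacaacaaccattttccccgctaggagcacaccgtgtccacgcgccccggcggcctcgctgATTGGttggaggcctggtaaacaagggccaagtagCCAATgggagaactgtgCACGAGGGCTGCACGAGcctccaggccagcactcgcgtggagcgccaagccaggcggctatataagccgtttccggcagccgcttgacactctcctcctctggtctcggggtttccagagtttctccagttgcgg
Arrdc4: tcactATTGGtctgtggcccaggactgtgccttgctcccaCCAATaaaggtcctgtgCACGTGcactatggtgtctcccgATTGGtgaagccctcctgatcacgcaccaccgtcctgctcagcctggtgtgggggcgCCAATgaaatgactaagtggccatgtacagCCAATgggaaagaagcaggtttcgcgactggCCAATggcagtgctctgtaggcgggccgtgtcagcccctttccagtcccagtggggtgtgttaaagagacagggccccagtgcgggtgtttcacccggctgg
Arrdc2: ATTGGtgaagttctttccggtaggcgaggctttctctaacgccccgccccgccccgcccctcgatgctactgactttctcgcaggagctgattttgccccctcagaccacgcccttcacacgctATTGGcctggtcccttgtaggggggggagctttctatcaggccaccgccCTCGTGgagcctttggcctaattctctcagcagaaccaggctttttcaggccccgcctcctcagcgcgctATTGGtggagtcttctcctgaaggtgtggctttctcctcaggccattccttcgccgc
Arrdc3: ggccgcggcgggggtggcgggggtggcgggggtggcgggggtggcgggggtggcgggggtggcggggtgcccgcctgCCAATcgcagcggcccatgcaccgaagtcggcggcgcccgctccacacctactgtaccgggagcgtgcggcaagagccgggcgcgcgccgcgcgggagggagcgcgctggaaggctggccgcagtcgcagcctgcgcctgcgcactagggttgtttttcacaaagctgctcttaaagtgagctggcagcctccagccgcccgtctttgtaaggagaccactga

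In the Txnip window the paired sites lie at positions -85 to -69, counted from the annotated start as position 0, and hold the CACGAG sites at -85 and -74. This paired layout occurs in 16 of 32851 promoter windows of the same length, or 0.0487%. A CCAAT box on the gene's strand starts at -102 and another, on the opposite strand, lies at -137. Arrdc4 has a CACGTG at -193 and 6 CCAAT boxes, 4 of them on its own strand. A CACGTG was found in 7.15% of all windows, and a CCAAT box in 37.4%. Arrdc2 has a single CACGAG site, on the opposite strand at -77, a motif found in 6.47% of windows, and 3 CCAAT boxes. The Arrdc3 window holds 1 CCAAT box, at -173. For Arrdc1, not shown, the window at a start inside the gene holds CACGAG sites on the opposite strand at -158 and -118. It holds no paired form. A match describes letters in these windows and is not evidence of binding.

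**Figure D1:**
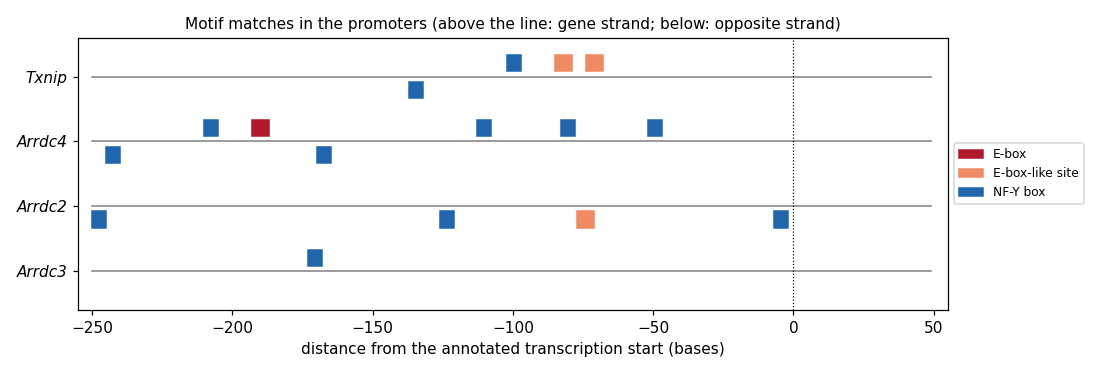
Motif matches in the promoter windows of Txnip, Arrdc4, Arrdc2 and Arrdc3, plotted by distance in bases from the annotated start (dotted line), with matches on the gene's strand above each line and on the opposite strand below it. Txnip has 2 adjacent E-box-like sites at -85 and -74, Arrdc4 has 1 E-box and 6 NF-Y (CCAAT) boxes, and Arrdc3 has a single box.

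Txnip was higher with both compounds in WT MEFs, and much more so with AICAR. With 991 the 3 WT arrays read 7.91, 7.74 and 7.80, and with AICAR the 4 WT arrays read 9.04, 9.02, 8.87 and 8.83, against 7.01, 7.19, 7.05 and 7.09 in WT MEFs with vehicle. No array of any of these groups overlapped another group. The increase in WT MEFs was 0.73 ± 0.08 with 991 and 1.86 ± 0.07 with AICAR, or 1.66-fold and 3.62-fold.

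In dKO MEFs the effect of 991 on Txnip was not seen and that of AICAR was smaller. The dKO arrays read 7.43, 7.58, 7.76 and 7.55 with 991, and 8.01, 8.11, 8.13 and 8.0 with AICAR, against 7.55, 7.43, 7.80 and 7.53 with vehicle. The 991 and vehicle arrays of dKO MEFs overlapped throughout, while every AICAR array lay above every vehicle array. For 991 the difference in dKO MEFs was 0.00 ± 0.07, with a 95% interval of -0.14 to 0.15. With AICAR Txnip rose by 0.48 ± 0.07, or 1.40-fold, in dKO MEFs. This rise is given without a test, because the dKO vehicle arrays also entered the genotype difference used in the selection. The effect in dKO MEFs was smaller than that in WT MEFs by 0.73 on the log2 scale for 991 (-0.73 ± 0.11) and by 1.37 for AICAR (-1.37 ± 0.10). Both compounds were set against the same vehicle arrays within a genotype, so these effects are not independent of each other.

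The starting level of Txnip differed between the genotypes. With vehicle, Txnip averaged 7.58 ± 0.16 in dKO MEFs and 7.08 ± 0.08 in WT MEFs (n = 4 each), a difference of 0.49 ± 0.07. It carries no test, because both vehicle groups entered the values on which Txnip was selected. From the highest, the order of the group means was WT with AICAR at 8.94 ± 0.11, dKO with AICAR at 8.06 ± 0.07, WT with 991 at 7.82 ± 0.09, dKO with 991 at 7.58 ± 0.13, dKO with vehicle at 7.58 ± 0.16 and WT with vehicle at 7.08 ± 0.08. The arrays of WT MEFs with 991 overlapped those of both dKO MEFs with 991 and dKO MEFs with vehicle. Fibroblast markers also differed between these cultures, with the mean of 6 markers between 7.86 and 7.98 on dKO and between 10.01 and 10.09 on WT vehicle arrays, and their part in the result was not tested.

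The second Txnip probe set, 1415997_at, gave smaller rises with AICAR in both genotypes and with 991 in WT MEFs. With vehicle its level was almost the same in both genotypes. In WT MEFs it read 7.05, 6.97 and 7.15 with 991 and 7.71, 7.82, 7.85 and 7.83 with AICAR, against 6.82, 6.53, 6.65 and 6.92 with vehicle. These groups again did not overlap, and the increase was 0.33 ± 0.11 with 991 and 1.08 ± 0.10 with AICAR. In dKO MEFs it read 6.88, 6.95, 6.67 and 6.99 with 991 and 6.87, 7.20, 7.06 and 7.0 with AICAR, against 6.46, 6.68, 7.13 and 6.75 with vehicle. It rose with AICAR by 0.27 ± 0.10 in dKO MEFs, though the treated and vehicle arrays overlapped. The genotype difference, dKO minus WT, was -0.21 ± 0.15 for 991 and -0.80 ± 0.14 for AICAR. Between dKO and WT MEFs with vehicle 1415997_at differed by 0.03 ± 0.10, so the higher starting level in dKO MEFs rests on 1415996_at alone.

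**Figure D2:**
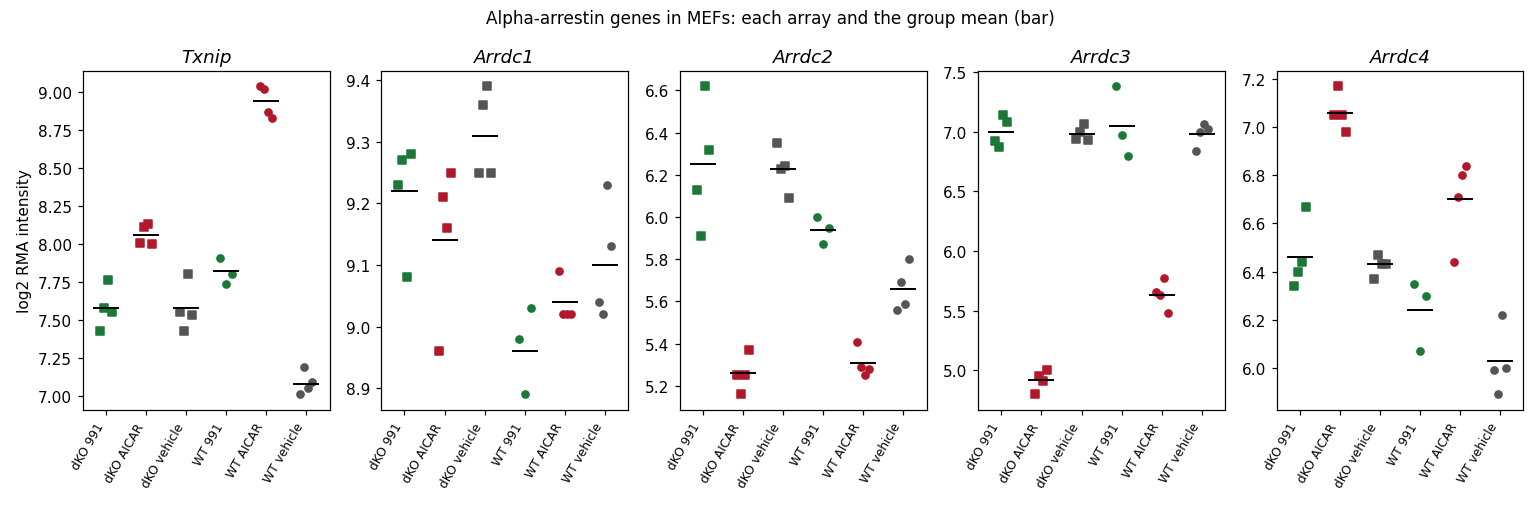
Log2 intensity of the 5 genes on each MEF array (points; squares are dKO and circles are WT) by genotype and treatment, with bars at the group means. Txnip reaches 8.94 with AICAR in WT MEFs, while Arrdc3 falls to 4.92 with AICAR in dKO MEFs, against 6.98 with vehicle.

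Arrdc4 rose with AICAR in both genotypes. In dKO MEFs the arrays read 7.05, 7.17, 7.05 and 6.98 with AICAR, against 6.37, 6.47, 6.43 and 6.43 with vehicle. In WT MEFs they read 6.44, 6.71, 6.80 and 6.84 with AICAR, against 5.99, 5.89, 6.22 and 6.00 with vehicle. Treated and vehicle arrays did not overlap in either genotype. The rise was 0.63 ± 0.09 in dKO MEFs (limma adjusted p = 3.89e-07) and 0.67 ± 0.09 in WT MEFs (limma adjusted p = 2.15e-07). The difference between these effects was -0.04 ± 0.12, with a 95% interval of -0.29 to 0.22 (limma adjusted p = 0.924). With 991 Arrdc4 differed from vehicle by 0.03 ± 0.09 in dKO MEFs (limma adjusted p = 0.897) and by 0.21 ± 0.09 in WT MEFs (limma adjusted p = 0.108).

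The dimmer Arrdc4 probe set 1426818_at also rose with AICAR, by 0.41 ± 0.10 in dKO MEFs (limma adjusted p = 0.00094) and by 0.64 ± 0.10 in WT MEFs (limma adjusted p = 3.27e-06). With vehicle, 1424759_at was higher in dKO than in WT MEFs by 0.40 ± 0.09 (limma adjusted p = 0.000261), whereas 1426818_at differed by -0.06 ± 0.10 (limma adjusted p = 0.70). Txnip and Arrdc4 thus each had 1 probe set that was higher in dKO MEFs and 1 that did not show this. For Arrdc4 the latter was dim: with vehicle 1426818_at ran from 4.03 to 4.24 on dKO and from 4.06 to 4.35 on WT arrays. For 1424759_at these ranges were 6.37 to 6.47 and 5.89 to 6.22. RMA shrinks differences of dim probe sets. With AICAR 1426818_at rose by 0.64 in WT MEFs, against 0.67 for 1424759_at, and by 0.41 in dKO MEFs, against 0.63. Whether dimness lies behind the flat value of 1426818_at with vehicle was not tested. Whether a probe set reads another transcript form was not tested.

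**Figure D3:**
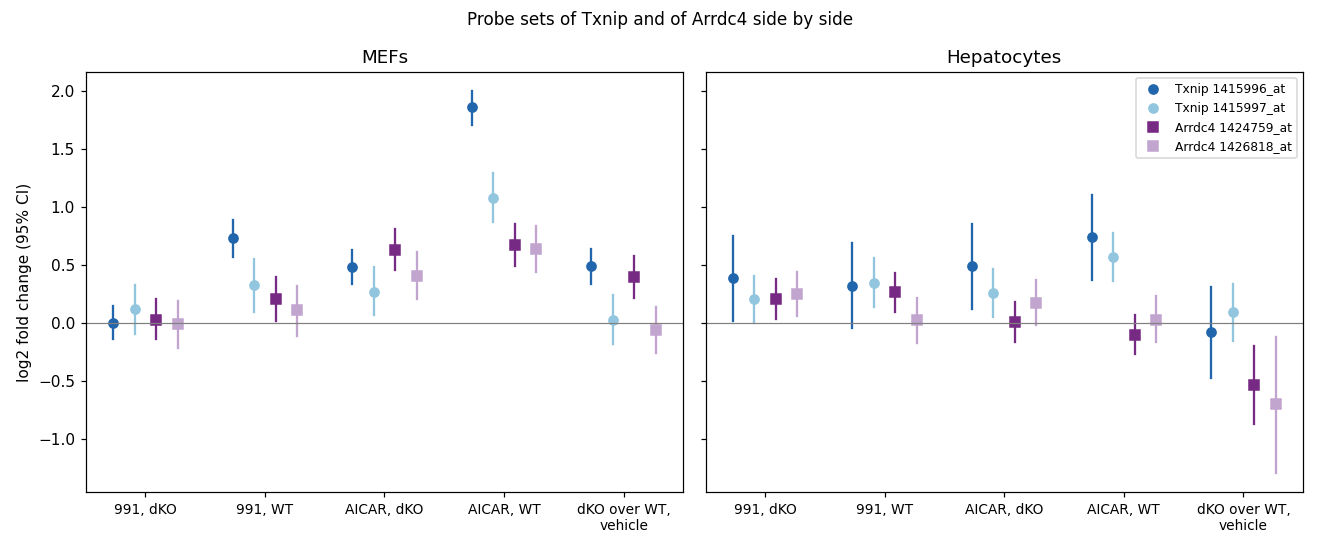
Log2 fold change with its 95% interval for both probe sets of Txnip (circles) and of Arrdc4 (squares), for 991 and AICAR over vehicle in dKO and WT cells and for dKO over WT with vehicle, in MEFs and hepatocytes. In WT MEFs with AICAR the Txnip probe sets lie at 1.86 and 1.08, and with vehicle they lie at 0.49 and 0.03 for dKO over WT.

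Arrdc3 moved the other way. It had the largest change of the 5 genes with AICAR in dKO MEFs, and no call with 991. In dKO MEFs the arrays read 4.80, 4.95, 4.91 and 5.00 with AICAR, against 6.94, 7.0, 7.06 and 6.93 with vehicle. In WT MEFs they read 5.66, 5.63, 5.77 and 5.48 with AICAR, against 6.84, 7.0, 7.06 and 7.02 with vehicle. The AICAR arrays lay more than 1 log2 unit below the vehicle arrays in both genotypes. Arrdc3 fell by 2.07 ± 0.09 in dKO MEFs, 4.19-fold lower (limma adjusted p = 4.67e-18), and fell by 1.35 ± 0.09 in WT MEFs, 2.54-fold lower (limma adjusted p = 2.84e-13). The drop was deeper in dKO MEFs, with a difference between the effects of -0.72 ± 0.13 (limma adjusted p = 0.000243). It ranked 14 among the genes that were lower with AICAR in dKO MEFs, counted from the largest drop. With vehicle it averaged 6.98 ± 0.06 in dKO MEFs and 6.98 ± 0.10 in WT MEFs. With 991, Arrdc3 differed from vehicle by 0.02 ± 0.09 in dKO MEFs (limma adjusted p = 0.956) and by 0.07 ± 0.10 in WT MEFs (limma adjusted p = 0.637).

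Arrdc2, a less studied member, also fell with AICAR. In dKO MEFs it read 5.25, 5.16, 5.25 and 5.37 with AICAR, against 6.35, 6.23, 6.24 and 6.09 with vehicle. In WT MEFs it read 5.41, 5.29, 5.25 and 5.28 with AICAR, against 5.56, 5.69, 5.59 and 5.80 with vehicle. The levels reached with AICAR overlapped between the genotypes, while the vehicle levels did not. Arrdc2 was dim, its mean level in MEFs lying above 33.9% of genes. Its AICAR arrays, at 5.16 to 5.41, lay below the mean of 6 hepatocyte markers on MEF arrays, 5.5 to 5.86. Whether the low level limited the drop in WT MEFs, and so made the genotype difference, was not tested. Arrdc2 fell by 0.97 ± 0.10 in dKO MEFs (limma adjusted p = 1.23e-09) and by 0.35 ± 0.10 in WT MEFs (limma adjusted p = 0.00525), and the difference between the effects was -0.62 ± 0.14 (limma adjusted p = 0.00295). With vehicle Arrdc2 was higher in dKO than in WT MEFs by 0.57 ± 0.10 (limma adjusted p = 1.27e-05). With 991 it differed from vehicle by 0.02 ± 0.10 in dKO MEFs (limma adjusted p = 0.957) and by 0.28 ± 0.11 in WT MEFs (limma adjusted p = 0.0649).

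Arrdc1 changed least, its 6 group means spanning 0.34 on the log2 scale. It fell with AICAR in dKO MEFs by 0.17 ± 0.06 (limma adjusted p = 0.0183), with arrays at 8.96, 9.21, 9.16 and 9.25 with AICAR, against 9.25, 9.36, 9.39 and 9.25 with vehicle. The groups touched at 9.25, and the call was lost without any 1 of 3 arrays, with limma adjusted p = 0.143 without AICAR array 1 and 0.0578 or 0.073 without vehicle array 2 or 3. Of its other probe sets, 1458613_at fell by 0.29 ± 0.06 in dKO MEFs with AICAR (limma adjusted p = 0.00034), and 1444508_s_at differed by -0.05 ± 0.05 (limma adjusted p = 0.462). With vehicle, Arrdc1 was higher in dKO than in WT MEFs by 0.21 ± 0.06 (limma adjusted p = 0.00268), and 1444508_s_at by 0.16 ± 0.05 (limma adjusted p = 0.00747), while 1458613_at differed by 0.00 ± 0.06 (limma adjusted p = 0.974).

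AICAR changed a large share of all genes, and the counts for Arrdc1 to Arrdc4 stand beside that share. With AICAR 4 of these 4 genes were called in dKO MEFs, where 40.4% of genes were called, and 3 of 4 in WT MEFs, where 35.2% were. Over every probe set on its own, 37.8% and 31.7% were called. In dKO MEFs 0.0998% of genes had a larger absolute change with AICAR than Arrdc3, 1.57% than Arrdc2, 4.65% than Arrdc4 and 38.1% than Arrdc1. In WT MEFs these shares were 0.216% for Arrdc3, 9.22% for Arrdc2, 2.21% for Arrdc4 and 67.9% for Arrdc1. The effect of AICAR differed between genotypes for 2 of 4, where 12.1% of genes were called. With 991 none of the 4 was called in dKO MEFs (3.52% of genes), in WT MEFs (19.9%) or in the difference between genotypes (5.35%). At an unadjusted p under 0.05 the limma counts over all genes were 2832, 6241 and 4049 for these comparisons. Between dKO and WT MEFs with vehicle 3 of 4 were called, all of them higher in dKO MEFs, with 47.5% of genes called and 28.2% called as higher, or 40.9% of all probe sets in either direction. In WT MEFs 991 and AICAR, at their own doses, differed for 3 of 4 genes, against 28.1% of all genes: Arrdc2 by 0.63 ± 0.11 (limma adjusted p = 1.99e-05), Arrdc3 by 1.42 ± 0.10 (limma adjusted p = 7.42e-13) and Arrdc4 by -0.46 ± 0.09 (limma adjusted p = 0.000275), each given as 991 minus AICAR. For Txnip this difference was -1.13 ± 0.08.

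**Figure D4:**
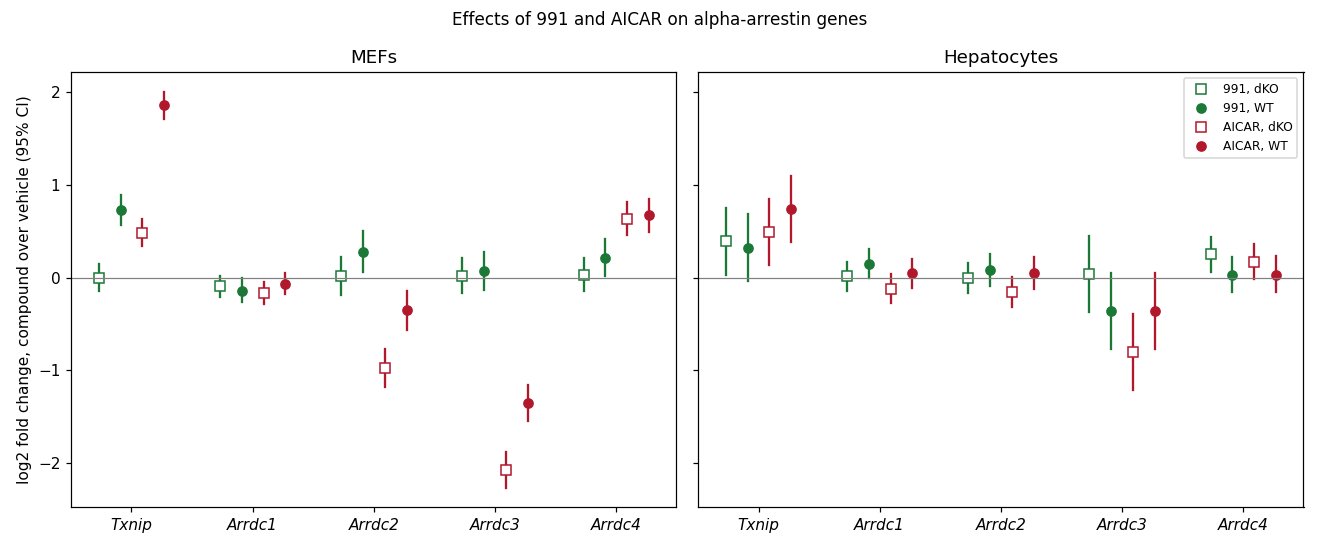
Log2 fold change of compound over vehicle with its 95% interval for the 5 genes in MEFs (left) and hepatocytes (right); open squares are dKO, filled circles are WT, green is 991 and red is AICAR. In MEFs Txnip and Arrdc4 lie above 0 and Arrdc2 and Arrdc3 below 0 with AICAR, and the intervals of Txnip and Arrdc3 are wider in hepatocytes.

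In hepatocytes Txnip rose with AICAR in WT cells. The 10 WT arrays ran from 8.50 to 8.82 with AICAR, with a median of 8.60, against 7.62 to 8.10 with vehicle, with a median of 7.88. No AICAR array overlapped a vehicle array. The preparation means were 8.68 and 8.58 with AICAR, against 7.78 and 8.02 with vehicle, and the rise of 0.74 ± 0.16, or 1.67-fold, was called (limma adjusted p = 0.0105). It was seen in both preparations, at 0.90 and 0.57, but the call was lost without the preparation block (limma adjusted p = 0.0633). Leaving out either preparation leaves 1 WT preparation, so no test is given for that. The second probe set, 1415997_at, rose by 0.57 ± 0.09 (limma adjusted p = 0.0016, where 18.2% of all probe sets were called), with 0.63 in preparation 1 and 0.51 in preparation 2. In bulk samples such as these, a change in the share of a cell type and a change in RNA per cell cannot be told apart.

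In dKO hepatocytes the 2 preparations disagreed on Txnip. With AICAR the arrays of preparation 1 ran from 7.89 to 8.19, against 7.90 to 8.12 with vehicle, and those of preparation 2 from 8.43 to 8.60, against 7.51 to 7.65. The difference was 0.03 in preparation 1 and 0.94 in preparation 2, which gave a mean of 0.49 ± 0.16 (limma adjusted p = 0.0622). That error is pooled over both genotypes and all treatments, and understates the gap between these 2 preparations. Without preparation 1 only 1 dKO preparation is left, so no test is given for its effect of 0.94. The effect of AICAR differed between dKO and WT hepatocytes by -0.25 ± 0.23, with a 95% interval of -0.76 to 0.26 (limma adjusted p = 0.821).

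With 991, Txnip was higher than with vehicle in each of the 4 hepatocyte preparations, without a call. The differences were 0.32 and 0.46 in dKO preparations 1 and 2, and 0.43 and 0.21 in WT preparations 1 and 2. The arrays with 991 overlapped the vehicle arrays only in WT preparation 2. The mean effect was 0.39 ± 0.16 in dKO hepatocytes (limma adjusted p = 0.998) and 0.32 ± 0.16 in WT hepatocytes (limma adjusted p = 0.283). The difference between these effects was 0.07 ± 0.23, with a 95% interval of -0.44 to 0.57 (limma adjusted p = 0.968). From the highest, the group means were 8.63 ± 0.07 in WT with AICAR, 8.30 ± 0.35 in dKO with AICAR, 8.22 ± 0.01 in WT with 991, 8.20 ± 0.20 in dKO with 991, 7.90 ± 0.17 in WT with vehicle and 7.82 ± 0.29 in dKO with vehicle (SD, n = 2 preparations each). The arrays of the 2 AICAR groups overlapped, as did those of the 2 groups with 991 and of the 2 groups with vehicle. With vehicle Txnip differed between dKO and WT hepatocytes by -0.08 ± 0.16 (limma adjusted p = 0.993).

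Arrdc3 fell with AICAR in dKO hepatocytes, as in MEFs. The arrays ran from 6.25 to 6.94 with AICAR, with a median of 6.72, against 7.13 to 7.73 with vehicle, with a median of 7.53. These groups did not overlap. The drop was 0.86 in preparation 1 and 0.74 in preparation 2, and Arrdc3 fell by 0.80 ± 0.19, 1.74-fold lower (limma adjusted p = 0.0126). The call was lost without the preparation block (limma adjusted p = 0.144). Leaving out either preparation leaves 1 dKO preparation, so no test is given for that. In WT hepatocytes the preparations disagreed: the arrays of preparation 1 ran from 7.61 to 7.97 with AICAR, against 7.44 to 7.67 with vehicle, and those of preparation 2 from 6.50 to 6.92, against 7.47 to 7.72. The WT difference was 0.16 in preparation 1 and -0.88 in preparation 2, which gave -0.36 ± 0.19 (limma adjusted p = 0.219). The pooled error understates the gap between these 2 WT preparations. The effect differed between dKO and WT hepatocytes by -0.44 ± 0.26 (limma adjusted p = 0.692). With 991 Arrdc3 differed from vehicle by 0.04 ± 0.19 in dKO hepatocytes (limma adjusted p = 0.998) and by -0.36 ± 0.19 in WT hepatocytes (limma adjusted p = 0.29).

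**Figure D5:**
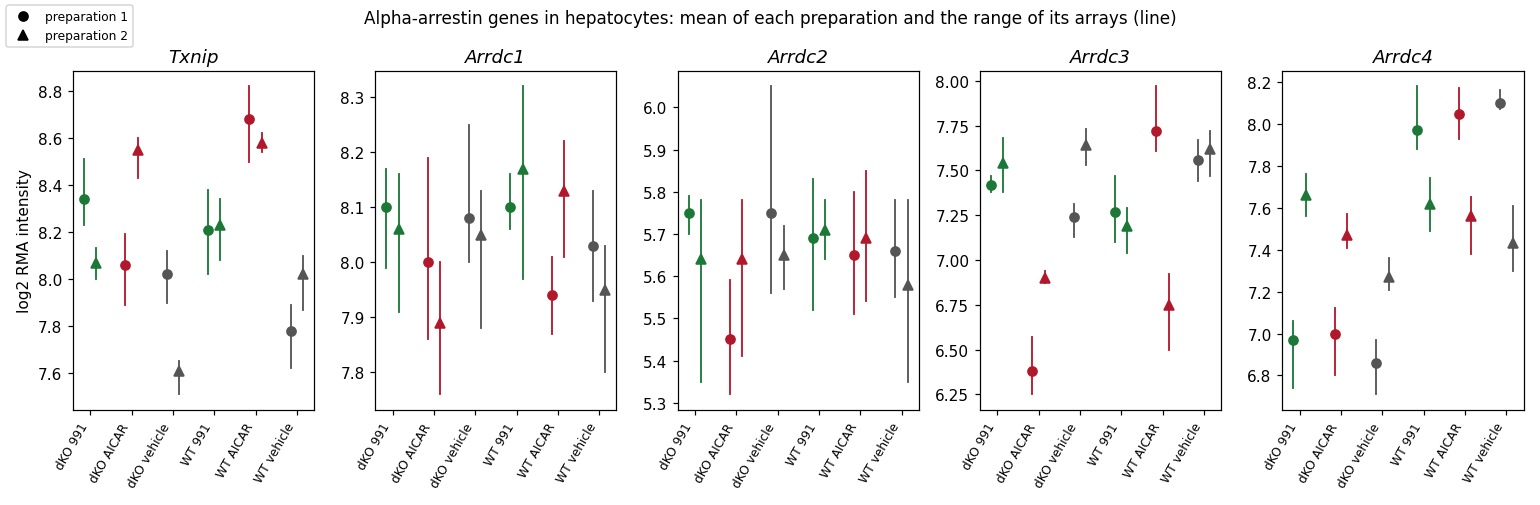
Log2 intensity of the 5 genes in each hepatocyte preparation (circle, preparation 1; triangle, preparation 2) by genotype and treatment, with lines spanning the arrays of that preparation. With AICAR, Txnip in dKO preparation 1 stays at 8.06, near its vehicle mean of 8.02, and Arrdc3 in WT preparation 1 stays at 7.72, near its vehicle mean of 7.56.

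Some markers of hepatocytes and of other liver cells also changed with AICAR. In dKO hepatocytes 3 of 6 hepatocyte, 4 of 5 Kupffer cell, 3 of 5 endothelial and 1 of 3 stellate cell markers rose, and in WT hepatocytes 2, 1, 2 and 2 of them did. Of 4 cholangiocyte markers 1 fell and none rose in each genotype. Over all genes 17.9% were called with AICAR in dKO hepatocytes and 16.6% in WT hepatocytes, in either direction. The mean of 6 hepatocyte markers ran from 13.73 to 13.78 in dKO and from 13.62 to 13.77 in WT hepatocytes with AICAR, against 13.5 to 13.63 in dKO and 13.5 to 13.57 in WT hepatocytes with vehicle. The mean of 5 endothelial markers ran from 7.24 to 7.59 in dKO and from 7.18 to 7.62 in WT hepatocytes with AICAR, against 6.96 to 7.26 in dKO and 6.87 to 7.22 in WT hepatocytes with vehicle. The mean of 3 stellate cell markers ran from 6.44 to 6.79 in dKO and from 6.43 to 6.72 in WT hepatocytes with AICAR, against 6.24 to 6.46 in dKO and 6.17 to 6.34 in WT hepatocytes with vehicle. For 5 Kupffer cell markers it ran from 7.99 to 8.40 in dKO and from 8.21 to 8.57 in WT hepatocytes with AICAR, against 7.70 to 8.04 in dKO and 7.88 to 8.51 in WT hepatocytes with vehicle. The mean of 4 cholangiocyte markers ran from 6.19 to 6.35 in dKO and from 6.01 to 6.24 in WT hepatocytes with AICAR, against 6.19 to 6.44 in dKO and 6.19 to 6.37 in WT hepatocytes with vehicle. Below the median gene lay 2 of the 5 endothelial, 1 of the 3 stellate, 2 of the 4 cholangiocyte and none of the 5 Kupffer markers. Their part in the AICAR results for Txnip and Arrdc3 was not tested.

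Arrdc4 was called with neither compound in hepatocytes. With AICAR it differed from vehicle by 0.17 ± 0.09 in dKO hepatocytes (limma adjusted p = 0.206) and by 0.03 ± 0.09 in WT hepatocytes (limma adjusted p = 0.813). With 991 the difference was 0.25 ± 0.09 in dKO (limma adjusted p = 0.998) and 0.03 ± 0.09 in WT hepatocytes (limma adjusted p = 0.877). The other probe set, 1424759_at, was higher with 991 by 0.27 ± 0.08 in WT hepatocytes (limma adjusted p = 0.0813). In dKO hepatocytes it was higher by 0.21 ± 0.08, also without a call. Its differences were 0.08 and 0.35 in dKO preparations 1 and 2, and 0.22 and 0.31 in WT preparations 1 and 2. Read by 1426818_at, Arrdc4 differed between preparations of a genotype: with vehicle the means were 6.86 and 7.27 in dKO preparations 1 and 2, and 8.10 and 7.43 in WT preparations 1 and 2. The vehicle arrays ran from 6.71 to 7.36 in dKO and from 7.30 to 8.16 in WT hepatocytes and overlapped only between preparation 2 of each genotype. The genotype difference with vehicle was -0.70 ± 0.25, with a 95% interval of -1.33 to -0.08, and was not called (limma adjusted p = 0.992). The probe set 1424759_at also lay lower in dKO than in WT hepatocytes with vehicle, by -0.53 ± 0.14 (limma adjusted p = 0.889). In WT hepatocytes this probe set differed between 991 and AICAR by 0.37 ± 0.08, 991 minus AICAR (limma adjusted p = 0.0054; 19.5% of all probe sets were called), while 1426818_at differed by -0.01 ± 0.09 (limma adjusted p = 0.972).

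Arrdc1 and Arrdc2 showed no call in hepatocytes. The 6 group means of Arrdc1 spanned 0.19 and those of Arrdc2 spanned 0.16 on the log2 scale. Arrdc2 was dim here too, with a mean level of 5.65, above 32.0% of genes. The largest differences from vehicle were 0.15 ± 0.07 for Arrdc1 with 991 in WT hepatocytes (limma adjusted p = 0.259) and -0.16 ± 0.08 for Arrdc2 with AICAR in dKO hepatocytes (limma adjusted p = 0.197). Over Arrdc1 to Arrdc4, 1 of 4 was called with AICAR in dKO hepatocytes, where 17.9% of genes were called, and none with AICAR in WT hepatocytes (16.6%). With 991 none was called in WT hepatocytes (6.13%) or in dKO hepatocytes, where only 1 gene of all, or 0.00555%, was called. The limma count at an unadjusted p under 0.05 was 5572, 3848 and 814 genes for these last 3 comparisons. Called genes numbered 76 (0.421%) for the genotype difference of 991, 56 (0.311%) for that of AICAR and 0 (0.0%) for dKO against WT with vehicle, where 837 genes had an unadjusted limma p under 0.05. None of them was a member, and 991 against AICAR in WT hepatocytes (18.9% of genes) gave none either.

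Of the factors that drive Txnip, Mlxip, which encodes MondoA, rose with AICAR in MEFs by 0.27 ± 0.06 in dKO cells (limma adjusted p = 0.000916) and by 0.24 ± 0.06 in WT cells (limma adjusted p = 0.00335). Mlx rose by 0.10 ± 0.04 in dKO MEFs (limma adjusted p = 0.0498) and by 0.17 ± 0.04 in WT MEFs (limma adjusted p = 0.00127). Mlxipl, at 4.93 ± 0.08 in dKO and 4.89 ± 0.17 in WT MEFs with vehicle, fell by 0.33 ± 0.10 with AICAR in dKO MEFs (limma adjusted p = 0.00634) and differed by -0.14 ± 0.10 in WT MEFs (limma adjusted p = 0.289). Of 12 genes of the Mondo, Mlx and Max network, 5 rose and 4 fell with AICAR in dKO MEFs, and 5 rose and 5 fell in WT MEFs, where 40.4% and 35.2% of all genes were called. Myc, a Max partner that drives growth, fell by 0.87 ± 0.04 in dKO MEFs (limma adjusted p = 1.79e-18) and by 0.32 ± 0.04 in WT MEFs (limma adjusted p = 2.86e-08). Mnt, a Max and Mlx partner that represses transcription, rose by 0.24 ± 0.05 in dKO MEFs (limma adjusted p = 0.000408) and by 1.01 ± 0.05 in WT MEFs (limma adjusted p = 6.79e-16). With 991 Mnt differed by -0.06 ± 0.05 in dKO MEFs (limma adjusted p = 0.677) and rose by 0.46 ± 0.06 in WT MEFs (limma adjusted p = 1.4e-06), and for 991 the 12 genes gave 1 rise and 1 fall in dKO MEFs (3.52% of all genes called), and 4 rises and 1 fall in WT MEFs (19.9%).

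Other genes known to respond to glucose through MondoA or ChREBP moved in both directions. Of 17 measured, 1 rose and 6 fell with AICAR in dKO MEFs, and 3 rose and 2 fell in WT MEFs, so the called share was near that of all genes in dKO MEFs (40.4%) and below it in WT MEFs (35.2%). The median change of the 17 was -0.12 in dKO and -0.05 in WT MEFs, against -0.02 and -0.01 over all genes. Hbp1, a repressor of cell cycle genes, rose by 0.18 ± 0.05 in dKO MEFs (limma adjusted p = 0.00424) and by 0.45 ± 0.05 in WT MEFs (limma adjusted p = 1.8e-08). Rgs16, a regulator of G-protein signalling, fell by 0.77 ± 0.06 in dKO MEFs (limma adjusted p = 5.96e-12) and by 0.39 ± 0.06 in WT MEFs (limma adjusted p = 5.72e-06). Mid1ip1, which activates acetyl-CoA carboxylase, fell by 0.45 ± 0.04 in dKO MEFs (limma adjusted p = 1.05e-10) and differed by -0.01 ± 0.04 in WT MEFs (limma adjusted p = 0.846). With 991 there was 1 fall among the 17 in dKO MEFs, and 7 rises and 2 falls in WT MEFs (3.52% and 19.9% of all genes called), led by Hbp1 at 0.72 ± 0.06 (limma adjusted p = 1.3e-10).

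The partners of Txnip changed by smaller amounts. Txn1, the thioredoxin it binds, differed with AICAR by 0.00 ± 0.02 in dKO MEFs (limma adjusted p = 0.963) and by 0.01 ± 0.02 in WT MEFs (limma adjusted p = 0.80). Among 11 measured genes of the thioredoxin system, 3 rose and 4 fell with AICAR in dKO MEFs, and 3 rose and 3 fell in WT MEFs, beside 40.4% and 35.2% of all genes called. Srxn1, which restores oxidised peroxiredoxins, fell by 0.40 ± 0.05 in dKO MEFs (limma adjusted p = 5.77e-08) and by 0.38 ± 0.05 in WT MEFs (limma adjusted p = 2.17e-07). Map3k5, the stress kinase ASK1 held inactive by thioredoxin, fell by 0.30 ± 0.07 in dKO MEFs (limma adjusted p = 0.000687) and by 0.54 ± 0.07 in WT MEFs (limma adjusted p = 1.97e-07). Of 8 glucose transporters and hexokinases, 3 fell and none rose with AICAR in each genotype, a called share near that of all genes. Slc2a1, which encodes Glut1, differed by -0.04 ± 0.04 in dKO MEFs (limma adjusted p = 0.537) and fell by 0.20 ± 0.04 in WT MEFs (limma adjusted p = 0.00058). Hk2, the inducible hexokinase, fell by 0.43 ± 0.04 in dKO MEFs (limma adjusted p = 9.53e-10) and by 0.19 ± 0.04 in WT MEFs (limma adjusted p = 0.00084). With 991 in WT MEFs, where 19.9% of all genes were called, 1 of the 11 and 1 of the 8 rose, Txnrd3 by 0.32 ± 0.07 (limma adjusted p = 0.0025) and Hk2 by 0.18 ± 0.05 (limma adjusted p = 0.00687).

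The machinery that alpha-arrestins recruit moved modestly. Of 11 Nedd4 family ligases and adaptors, 3 rose and 2 fell with AICAR in dKO MEFs, and 2 rose and 1 fell in WT MEFs, in each case close to or below the share of all genes called (40.4% and 35.2%). Itch, a ligase of this family, rose by 0.35 ± 0.03 in dKO MEFs (limma adjusted p = 1.43e-10) and differed by 0.08 ± 0.03 in WT MEFs (limma adjusted p = 0.0663). Nedd4l, another, rose by 0.21 ± 0.05 in dKO MEFs (limma adjusted p = 0.000609) and by 0.15 ± 0.05 in WT MEFs (limma adjusted p = 0.0152). Of 8 genes of the ESCRT machinery that buds vesicles, 5 rose with AICAR in dKO MEFs and 7 in WT MEFs, and none fell, beside the same shares of all genes. The median change of these 8 was 0.12 in dKO and 0.16 in WT MEFs, and their largest change was 0.41 ± 0.05, for Vps4b in dKO MEFs (limma adjusted p = 7.33e-09). Tsg101, the partner of Arrdc1, differed by 0.07 ± 0.05 in dKO MEFs (limma adjusted p = 0.217) and rose by 0.16 ± 0.05 in WT MEFs (limma adjusted p = 0.00659). With 991 in WT MEFs (19.9% of all genes called) 3 ligases or adaptors and 5 ESCRT genes rose, and none in dKO MEFs did. Of 4 measured cargoes, Notch1, a receptor, fell by 1.19 ± 0.06 in dKO MEFs with AICAR (limma adjusted p = 5.21e-17) and by 1.05 ± 0.06 in WT MEFs (limma adjusted p = 2.08e-15). Slc11a2, an iron transporter, differed with AICAR by 0.04 ± 0.05 in dKO MEFs (limma adjusted p = 0.505) and rose by 0.28 ± 0.05 in WT MEFs (limma adjusted p = 1.34e-05), and the other cargoes were not called. Of the 5 other arrestins 2 fell in each genotype with AICAR, among them Arrb1, which encodes beta-arrestin 1, by 0.24 ± 0.06 in dKO MEFs (limma adjusted p = 0.0033) and 0.21 ± 0.06 in WT MEFs (limma adjusted p = 0.00966).

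Targets of FOXO factors, which insulin signalling holds back, and of the glucocorticoid receptor, which is known to induce Arrdc2 and Arrdc3 in other cells, were followed with AICAR in MEFs. Of 11 FOXO targets, 1 rose and 6 fell in dKO MEFs, and 2 rose and 4 fell in WT MEFs, beside 40.4% and 35.2% of all genes called. The median change was -0.22 in dKO and -0.12 in WT MEFs, and the difference between genotypes was called for 5 of 11, each with a lower effect in dKO MEFs. Over all genes that difference was called for 12.1%, and 1428 of those 2187 genes had the lower effect in dKO MEFs. Bcl6, a transcriptional repressor, fell by 2.12 ± 0.10 in dKO MEFs (limma adjusted p = 6.22e-18) and by 0.98 ± 0.10 in WT MEFs (limma adjusted p = 8.52e-10). Irs2, an adaptor of the insulin receptor, fell by 1.34 ± 0.07 in dKO MEFs (limma adjusted p = 2.79e-16) and by 0.67 ± 0.07 in WT MEFs (limma adjusted p = 3.31e-09). Pdk4, which holds pyruvate dehydrogenase inactive, fell by 0.99 ± 0.05 in dKO MEFs (limma adjusted p = 1.97e-16) and by 0.29 ± 0.05 in WT MEFs (limma adjusted p = 2.83e-05). Of 12 glucocorticoid receptor targets, 2 rose and 6 fell in dKO MEFs, and 4 rose and 5 fell in WT MEFs, with a genotype difference called for 7, all lower in dKO MEFs, beside the same shares of all genes. Cebpd, a transcription factor, fell by 1.25 ± 0.08 in dKO MEFs (limma adjusted p = 1.8e-14) and by 0.36 ± 0.08 in WT MEFs (limma adjusted p = 0.000437). Dusp1, a phosphatase of MAP kinases, fell by 0.98 ± 0.04 in dKO MEFs (limma adjusted p = 2.8e-20) and by 0.51 ± 0.04 in WT MEFs (limma adjusted p = 4.32e-13). Klf9, a Kruppel-like factor with the largest genotype difference of this list, fell by 0.66 ± 0.04 in dKO MEFs (limma adjusted p = 7.74e-15) and rose by 0.32 ± 0.04 in WT MEFs (limma adjusted p = 9.93e-08). With 991 in WT MEFs 5 FOXO targets rose and 1 fell, and 2 glucocorticoid targets rose and 1 fell, while none of either list was called in dKO MEFs (19.9% and 3.52% of all genes called).

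In hepatocytes 17.9% of all genes were called with AICAR in dKO cells and 16.6% in WT cells. Of the 17 glucose-responsive genes 6 rose and 4 fell with AICAR in each genotype. Acacb, which makes malonyl-CoA at mitochondria, rose by 0.67 ± 0.09 in dKO hepatocytes (limma adjusted p = 0.000763) and by 0.84 ± 0.09 in WT hepatocytes (limma adjusted p = 0.000272). Fgf21, a hormone of the liver, rose by 0.84 ± 0.19 in dKO hepatocytes (limma adjusted p = 0.0112) and by 0.76 ± 0.19 in WT hepatocytes (limma adjusted p = 0.0199). Elovl6, a fatty acid elongase, fell by 0.61 ± 0.06 in dKO hepatocytes (limma adjusted p = 6.61e-05) and by 0.66 ± 0.06 in WT hepatocytes (limma adjusted p = 7.56e-05). With 991 in WT hepatocytes, where 6.13% of all genes were called, 5 of the 17 rose and 1 fell, G6pc, the glucose-6-phosphatase that releases glucose, by 1.54 ± 0.24 (limma adjusted p = 0.00341). Mlxipl, the liver partner of Mlx, differed with AICAR by -0.08 ± 0.06 in dKO (limma adjusted p = 0.453) and by 0.12 ± 0.06 in WT hepatocytes (limma adjusted p = 0.228), and rose with 991 by 0.24 ± 0.06 in WT hepatocytes (limma adjusted p = 0.0414). Mlx differed with AICAR by -0.08 ± 0.06 in dKO hepatocytes (limma adjusted p = 0.389) and fell by 0.23 ± 0.06 in WT hepatocytes (limma adjusted p = 0.0215). Mlxip rose with AICAR by 0.23 ± 0.07 in dKO hepatocytes (limma adjusted p = 0.04) and differed by 0.10 ± 0.07 in WT hepatocytes (limma adjusted p = 0.346).

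With AICAR 6 of the 11 Nedd4 family genes rose in dKO and 5 in WT hepatocytes, and none fell, against the same shares of 17.9% and 16.6% called over all genes, which also stand behind the other counts for AICAR here. Hecw1, a ligase of the family, rose by 1.17 ± 0.14 in dKO hepatocytes (limma adjusted p = 0.000282) and by 0.92 ± 0.14 in WT hepatocytes (limma adjusted p = 0.00155). Of the thioredoxin genes none rose and 4 fell in dKO hepatocytes, and 2 rose and 5 fell in WT hepatocytes. Srxn1 fell by 0.29 ± 0.06 in dKO hepatocytes (limma adjusted p = 0.00887) and by 0.44 ± 0.06 in WT hepatocytes (limma adjusted p = 0.00103). Of the FOXO targets 4 rose and none fell with AICAR in each genotype, among them Pdk4 by 1.58 ± 0.24 in dKO (limma adjusted p = 0.00124) and 1.05 ± 0.24 in WT hepatocytes (limma adjusted p = 0.0131). Of the glucocorticoid targets 6 rose and 3 fell in each genotype, and Ddit4, an inhibitor of mTORC1, fell by 0.97 ± 0.15 in dKO (limma adjusted p = 0.00115) and 0.65 ± 0.15 in WT hepatocytes (limma adjusted p = 0.0118). Dusp1 fell by 2.09 ± 0.04 in dKO (limma adjusted p = 2.38e-10) and 0.33 ± 0.04 in WT hepatocytes (limma adjusted p = 0.00055). The 5 other arrestins gave no call, and of the ESCRT genes 1 rose in dKO and 1 fell in WT hepatocytes. Among the 4 cargoes Notch1 rose, by 0.31 ± 0.08 in dKO (limma adjusted p = 0.0207) and 0.33 ± 0.08 in WT hepatocytes (limma adjusted p = 0.0166), and of the 8 glucose genes Slc2a1 rose in dKO hepatocytes by 0.27 ± 0.08 (limma adjusted p = 0.0461) and none was called in WT hepatocytes. With 991 in WT hepatocytes Slc2a1 rose by 0.38 ± 0.08 (limma adjusted p = 0.0219) and Slc2a2, the liver glucose transporter Glut2, by 0.38 ± 0.09 (limma adjusted p = 0.0248).

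The genes whose pattern was most like that of each member were found by Pearson's r over the 6 group means of a cell type, among genes above the median level whose means spanned at least 0.5. These values describe 6 points that share their arrays and vehicle groups, and carry no test. In MEFs Txnip was followed most closely by Mnt (r = 0.988), Bag5 (0.983), Tmppe (0.959), Pias4 (0.957) and 2810410L24Rik (0.947), out of 3901 genes. The other members were less like it, with r of 0.650 for Arrdc4, -0.576 for Arrdc2 and -0.670 for Arrdc3. Arrdc3 was most like Mepce (0.9998), Nsmce3 (0.9988) and Fam83h (0.9979), all with AICAR groups at the low end, and Arrdc2 was most like Zfp688 (0.9956), Kat5 (0.9919) and A430005L14Rik (0.9918). Arrdc2 and Arrdc3 had an r of 0.853 with each other. Arrdc4 was most like Znhit3 (0.997), Mllt11 (0.995) and Polk (0.9947). In hepatocytes, out of 1438 genes, Txnip was most like Cyp26a1 (0.989), Snhg16 (0.948), Cldn23 (0.935), Btg2 (0.922) and Pard3 (0.915), Arrdc3 like Pisd-ps3 (0.971), Angptl8 (0.958) and Ddit4 (0.958), and Arrdc4 like Cd74 (0.984), Pttg1 (0.974) and Galnt16 (0.972). The r between Txnip and Arrdc4 was 0.400 in hepatocytes.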

How the data were processed

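Expression was measured on 82 Affymetrix arrays, 23 from MEFs and 59 from hepatocytes. The deposited values are log2 intensities that the authors made with RMA, and per the submitters' processing notes Partek was also used; versions are not given in the sources used here. RMA combines the probes of a probe set and shrinks differences of dim ones. The authors left out 1 array in each cell type. Intensities give no read depth, so the number of arrays limits the precision.

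Of 45101 probe sets 64 controls were removed, 34945 of the rest had 1 gene symbol, 932 several and 9160 none, and 34741 were matched by Entrez identifier, giving 18032 genes. No filter on low values was set, and all 9 probe sets of the members were tested. limma 3.58.1 in R 4.3.3 fitted each cell type separately, with a trend in eBayes: 6 group means over 23 arrays in MEFs (17 residual degrees of freedom), and preparation means with preparation as a block in hepatocytes (4 residual degrees of freedom; 2 for dKO against WT with vehicle). The preparation number pairs the hepatocyte samples, since treatments of a preparation share it (median correlation of deviations 0.587 over 6 pairs). Benjamini-Hochberg adjustment ran over all genes. The fit was tested on simulated data. Promoter windows came from RefSeq.

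Members and gene lists were chosen with earlier results of these data known. By the naming rule all members are named, and from each other list up to 4 called genes with the largest absolute change in the comparison described, with Mlxip, Mlxipl and Mlx always; Txn1 and Tsg101, and genes set beside a called value in the other genotype or treatment, were named for their roles after their values were seen. Alternatives were quantile normalization, the mean of all probe sets, a filter at the median level, every hepatocyte array as a sample, replicate blocks, and leaving out replicates.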

Additional observations from a re-analysis of the deposited data

Results flagged for a closer look

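Of 85 groups of arrays examined, 6 held 1 array far from the others of its group, where chance gives about 1 in 20. Txnip in dKO hepatocytes with vehicle read 7.51 on array 2 of preparation 2, against 7.62 to 7.65 on the others. Arrdc1 in WT MEFs with AICAR read 9.09 on array 1, against 9.02 on each other array. Arrdc1 in dKO hepatocytes with vehicle read 8.25 on array 5 of preparation 1, against 8.0 to 8.04, and 7.88 on array 2 of preparation 2, against 8.06 to 8.13. Arrdc3 in WT hepatocytes with AICAR read 7.97 on array 3 of preparation 1, against 7.61 to 7.70. Arrdc4 in dKO hepatocytes with 991 read 6.74 on array 5 of preparation 1, against 6.99 to 7.06.

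The effect of AICAR in MEFs differed between the genotypes for 2 of Arrdc1 to Arrdc4, where 12.1% of all genes were called. Of these, Arrdc2 was dim, and its levels with AICAR overlapped between the genotypes. Given as dKO minus WT, the difference was -0.62 ± 0.14 for Arrdc2 (limma adjusted p = 0.00295) and -0.72 ± 0.13 for Arrdc3 (limma adjusted p = 0.000243). For Txnip it was -1.37 ± 0.10 with AICAR and -0.73 ± 0.11 with 991, a description only, because Txnip was chosen for these arrays.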

How the results depend on the processing

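Over 978 values of the 5 genes under alternatives, none changed direction while called, 949 kept their side of the threshold, 9 lost a call and 20 gained one. Among Arrdc1 to Arrdc4 a filter at the median level left only Arrdc1 in MEFs: calls became 1 for AICAR in dKO (4 otherwise), 0 for AICAR in WT (3), 0 for the genotype difference of AICAR (2), 0 for 991 against AICAR (3) and 1 for dKO against WT (3). For 991 in WT MEFs calls became 2 after quantile normalization, Arrdc1 at -0.23 (limma adjusted p = 0.0231) and Arrdc2 at 0.34 (limma adjusted p = 0.0406), and 1 with the mean of all probe sets, against 0. Quantile normalization also moved the split of all genes called there to 1272 higher and 1049 lower, against 2555 and 1025. With every hepatocyte array as a sample, which treats arrays of 1 preparation as independent, calls became 1 for 991 in dKO, 2 for 991 in WT, 4 for AICAR in dKO (1 otherwise), 1 for AICAR in WT, 1 for dKO against WT, and 2 and 1 for the genotype differences of 991 and AICAR. Without the replicate block of preparation, AICAR in dKO hepatocytes gave 0. Leaving out 1 preparation left 1 in its genotype. The residual spread then came from the other genotype, so these calls are not given, though they are among the 978 values. The technical number used as a replicate block in MEFs changed no call of a member; same-numbered arrays did not deviate together (median correlation 0.018, range -0.377 to 0.382). Counts over all genes in hepatocytes also moved: 167 to 5740 for 991 in WT (1105 otherwise), 0 to 784 for 991 in dKO (1), 719 to 7658 for AICAR in WT (2991), 1078 to 7103 for AICAR in dKO (3221), 3 to 2108 and 16 to 2308 for the genotype differences of 991 (76) and AICAR (56), 1295 to 6955 for 991 against AICAR (3406), and 0 to 2284 for dKO against WT (0). Counts over all genes without 1 preparation are not given, for the same reason as its calls. Leaving out replicates moved 991 in MEFs to 301 to 539 in dKO (634), 1893 to 4785 in WT (3580) and 502 to 1716 for the genotype difference (965). Apart from effects of fewer genes or samples, the cause was not tested. With 2 preparations per genotype, the hepatocyte calls rest on few samples.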
